A study of Mus musculus with 4 samples.

Results

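Genes of the cell division machinery were followed through 4 samples of mouse hippocampus, each measured on 1 Affymetrix Murine Genome (MG_U74Av2) array. They were found by gene symbol: cyclins, cyclin-dependent kinases (CDKs) and symbols that start like theirs, CDK inhibitors, MCM and CDC genes other than Cdc42, E2F factors, mitotic kinases and checkpoint genes, Pcna, DNA topoisomerase II, Mki67, ribonucleotide reductase, and the polymerase alpha and primase genes. The pattern matched 110 of 12422 probe sets, those with a single symbol in the array's annotation, and these covered 84 of the 8251 genes so measured. A probe set is the group of short oligonucleotides that reads 1 transcript. All samples are total RNA of murine hippocampus and form 1 group. The labels give no strain, sex, age, treatment or genotype, and do not say whether the samples came from separate animals, so that technical error can make up a part of the spread between them. They are called samples 1 to 4, which are names only. With a single group, the question addressed was how strongly these genes were measured in hippocampus and how far replicate samples differed in them.

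As background, cyclins are regulatory subunits that switch on CDKs, CDK inhibitors block them, and active CDKs release E2F factors from the retinoblastoma protein so that the genes of DNA synthesis are transcribed. The MCM complex is loaded on replication origins as a licence and then serves as the helicase of the fork, while polymerase alpha and primase start each new strand. In the hippocampus nearly all neurons have left the cycle for good, division is mainly that of neural progenitors in the dentate gyrus and of glial precursors, and several members, Cdk5 first among them, work in neurons without any role in division. The tissue is a mixture of cells, so fewer cells of a type and less RNA per cell cannot be told apart in these data.

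Signals are quantile normalized array units. A floor was set at 27.7 units, the 25th percentile of all signals. It is not a detection limit, and values under it have no order. Probe sets whose mean lay above the median of all means, 6210 in all, were analysed for differences between samples. A level is read against the other samples of the same probe set. How many probe sets of a role pass the floor or the filter depends on the strength of their oligonucleotides as well as on the RNA.

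Control transcripts are read at both ends, and a large excess of 3' over 5' signal marks shortened RNA or cDNA. For 5 of 5 control transcripts the quotient of 3' over 5' signal was largest in sample 4. For beta-actin it was 1.84, 1.64, 1.51 and 2.03 in samples 1 to 4. For Gapdh it was 0.89, 0.86, 0.98 and 1.15, so that Gapdh had no 3' excess in samples 1 to 3. The transferrin receptor's 5' signal in sample 4 lay under the floor, and the lowest 5' signal of 18S RNA was 34.6 units, close to it. Of 10 markers of hippocampal principal cells 8 were measured, and 7 of these lay above the floor on all 4 arrays. The exception was Prox1, a granule cell factor, with 64.1, 27.4, 109 and 16.7 units.

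As a group the members were measured about as often as any other probe sets, but their roles differed. Of the 110 probe sets 71 (64.5%) lay above the floor on all 4 arrays, against 64.1% of all probe sets, and 11 of 110 lay above it on 0 arrays, against 14.2%. The mean signal passed the median of all means for 53 of 110 (48.2%), against 50.0% overall. Among CDKs and their partners 19 of 22 probe sets lay above the floor on all arrays, among cyclins 9 of 13, among licensing and DNA synthesis genes 14 of 24, among mitotic genes 12 of 24, among CDK inhibitors 6 of 11 and among E2F factors 2 of 6. Only 6 of 24 licensing and DNA synthesis probe sets and 1 of 6 E2F probe sets were strong enough to be analysed, compared with 15 of 22 for CDKs and partners and 10 of 13 for cyclins. These shares describe the probe sets on this array and were not tested.

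**Figure D1:**
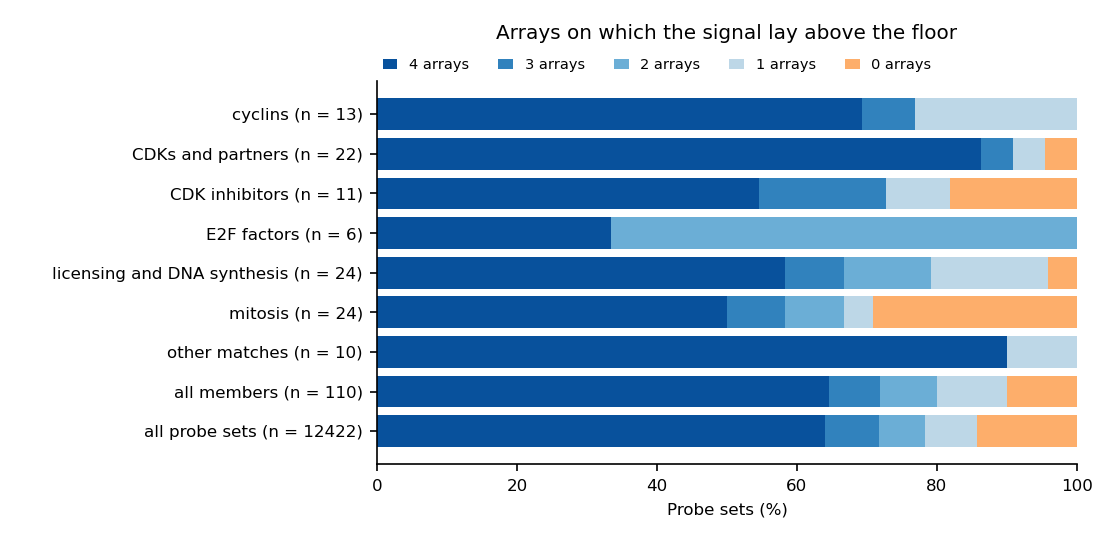
The share of probe sets (percent, horizontal axis) whose normalized signal lay above the floor of 27.7 units on 4, 3, 2, 1 or 0 of the 4 hippocampus arrays, by role, with the number of probe sets in brackets. The darkest blue reaches furthest for CDKs and partners (19 of 22) and other matches (9 of 10), and the mitosis bar has the longest orange end (7 of 24).

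Some genes that mark dividing cells had no signal above the floor. Cdk1, the kinase that drives entry into mitosis, gave 11.4, 16.7, 9.68 and 14.4 units in samples 1 to 4, and Top2a, the topoisomerase II of dividing cells, gave 10.4, 5.25, 4.33 and 23.9 units. All of these signals lay under the floor. The 3 probe sets of the checkpoint kinase Bub1 stayed between 1.48 and 19.0 units. Cdkn3, a phosphatase of CDKs that is made in proliferating cells, gave 4.92 to 12.1 units, and the inhibitor Cdkn2b 9.93 to 16.5 units. These 5 genes had no signal above the floor on any array. Ccna1 and Ccne2 among the cyclins, Aurka, and Mcm6, Mcm10 and Prim2 each reached the floor on 1 array. So did Ccnb1ip1, which was counted with the cyclins because of its symbol but is not itself a cyclin. Ccne2, a cyclin of the G1 to S step, did so only in sample 2 (34.4 units, against 2.85 to 6.35 in the others), as did Mcm6 (35.5 units, against 4.10 to 8.10).

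Promoters of cell cycle genes often hold short elements through which their transcription is tied to the cycle. The windows printed are those of Cdk1 and Top2a, which lay under the floor, of Mcm6, which passed it on 1 array, of Mcm5, which had a wide range between samples, and of Cdk8, a kinase of the Mediator complex that hardly differed between them. Each window runs from 250 bases before to 50 bases after a gene start and is taken from RefSeq (GRCm38.p6), 5' to 3' on the strand of the gene. Capitals mark matches on either strand to the E2F consensus (TTTCCCGC, TTTCGCGC, TTTGGCGC or TTTGCCGC), to the cell cycle genes homology region, CHR (TTTGAA or TTCGAA), and to the CCAAT box (CCAAT). Matches can overlap.
Cdk1, chr10:69352863-69353162, reverse strand: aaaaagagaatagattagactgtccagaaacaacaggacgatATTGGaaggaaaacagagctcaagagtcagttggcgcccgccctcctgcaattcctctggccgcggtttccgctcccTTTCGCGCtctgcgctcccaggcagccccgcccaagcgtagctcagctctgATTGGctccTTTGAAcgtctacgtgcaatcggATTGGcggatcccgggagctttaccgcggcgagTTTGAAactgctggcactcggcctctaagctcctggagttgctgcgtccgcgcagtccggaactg
Top2a, chr11:99024140-99024439, reverse strand: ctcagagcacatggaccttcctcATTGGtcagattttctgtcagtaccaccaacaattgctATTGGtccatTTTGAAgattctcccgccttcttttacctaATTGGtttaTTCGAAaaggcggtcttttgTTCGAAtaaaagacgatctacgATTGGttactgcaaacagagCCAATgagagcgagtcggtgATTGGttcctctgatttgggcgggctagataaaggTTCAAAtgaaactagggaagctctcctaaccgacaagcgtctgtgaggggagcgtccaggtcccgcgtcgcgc
Mcm6, chr1:128359656-128359955, reverse strand: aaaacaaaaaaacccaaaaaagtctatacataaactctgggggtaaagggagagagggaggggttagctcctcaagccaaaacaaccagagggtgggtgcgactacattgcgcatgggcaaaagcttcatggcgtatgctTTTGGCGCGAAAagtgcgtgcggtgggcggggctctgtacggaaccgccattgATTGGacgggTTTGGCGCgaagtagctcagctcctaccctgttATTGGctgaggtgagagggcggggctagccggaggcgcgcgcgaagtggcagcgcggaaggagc
Mcm5, chr8:75109259-75109558, forward strand: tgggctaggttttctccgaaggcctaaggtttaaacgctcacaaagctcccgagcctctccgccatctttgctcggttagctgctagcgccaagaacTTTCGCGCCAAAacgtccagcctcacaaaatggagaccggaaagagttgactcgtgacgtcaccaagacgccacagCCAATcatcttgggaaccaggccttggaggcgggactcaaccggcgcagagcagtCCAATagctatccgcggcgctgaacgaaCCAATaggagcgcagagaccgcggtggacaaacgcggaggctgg
Cdk8, chr5:146231000-146231299, forward strand: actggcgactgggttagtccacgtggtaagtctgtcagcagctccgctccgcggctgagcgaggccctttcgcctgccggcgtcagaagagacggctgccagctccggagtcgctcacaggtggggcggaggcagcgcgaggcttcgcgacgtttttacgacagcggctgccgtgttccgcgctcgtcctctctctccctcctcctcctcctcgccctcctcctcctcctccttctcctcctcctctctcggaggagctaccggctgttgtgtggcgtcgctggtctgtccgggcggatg
The Cdk1 window held 1 E2F match, 2 CHR matches and 3 CCAAT boxes, and the Top2a window held 0, 4 and 6 of them. The Mcm6 window held 3 E2F matches and 2 CCAAT boxes, the Mcm5 window 2 and 3, and the Cdk8 window none of the 3 motifs.

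RefSeq windows were matched for 71 of the 84 genes, 83 windows in all. The other genes were Aurkb, Ccna2, Ccnd1, Ccnd2, Ccne2, Cdc23, Cdc25c, Cdk5, Cdk5r1, Cdkn1c, E2f5, Mcm4 and Prim2. The E2F consensus occurred in 13.3% of the 83 windows, against 2.26% of all 32851 windows. CHR and CCAAT together occurred in 21.7%, against 7.52% of all windows. Among windows that also hold a GC box (GGGCGG), the E2F consensus occurred in 14.3% for members, against 4.35% for protein-coding genes. CHR and CCAAT together occurred in 23.8% of these for members, against 4.89%. By role, the E2F consensus occurred in 6 of 20 windows of licensing and DNA synthesis genes, in 1 of 13 of mitotic genes and in 0 of 9 of cyclins. CHR together with CCAAT occurred in 7 of 13 windows of mitotic genes and in 4 of 20 of licensing and DNA synthesis genes. Of the 11 genes with an E2F match in a window, 3 (Mcm3, Mcm5 and Cdc25a) had an analysed probe set, compared with 39 of 60 genes without a match. Of the 19 genes with a CHR match 6 did, compared with 36 of 52 without. A match is a description of the letters in the window, and these shares were not tested.

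Across the 53 analysed probe sets, which covered 49 genes, the samples differed little. The range of a probe set is its highest minus its lowest sample, and its median was 0.48 log2 units (1.39-fold) for members, beside 0.53 for all analysed probe sets. A span under 1.5-fold was found for 35 of 53 members (66.0%), against 55.8% of all analysed probe sets, and a span of at least 2-fold for 6 members (11.3%), against 15.2%. In the variance test (limma, one-sided F test of each variance against the intensity trend, Benjamini-Hochberg adjustment over all 6210 probe sets), 0 of 53 members had an adjusted p under 0.05, where 0% of all did, and the smallest adjusted p of a member was 0.767. At an unadjusted p under 0.05 there was 1 member (1.89%), against 5.62% of all, and this number was also 1 with a prior that is not robust to outlying variances. With all 4 samples and the filter on the mean, the members' shares of wide ranges and of low p-values thus lay under those of the whole array. This difference was not tested and did not hold in every setting. Without sample 4 the median range was 0.40 log2 units for members and 0.37 for all. With no filter on dim probe sets the members' share of low p-values was the larger one. In 6 members (11.3%, against 6.05% of all) 1 sample lay far apart from the other 3 by Dixon's gap ratio. The 6 members with a 2-fold range became 3 without sample 2 (5.88%, against 11.8% of all analysed probe sets) and 3 without sample 3 (6%, against 11.1%). There were 4 without sample 1 (7.69%, against 11.2%) and 4 without sample 4 (7.55%, against 7.36%). A range over fewer samples tends to be smaller, for members as for the whole array. Without sample 2, the first Ccnd1 probe set and Ccnd2 no longer passed the filter on the mean and Pola2 had a range of 0.43 log2 units. Without sample 3, the same Ccnd1 probe set, Ccnd2 and the analysed Cdkn1a probe set no longer passed it.

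**Figure D2:**
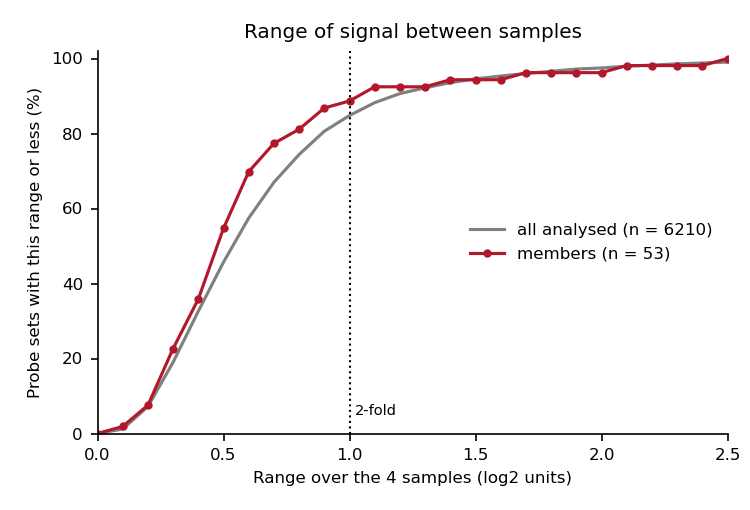
Cumulative share of analysed probe sets (percent, vertical axis) against their range over the 4 hippocampus samples (log2 units), for the 53 members (red, with points) and all 6210 analysed probe sets (grey). The dotted line marks 2-fold, beyond which 11.3% of members and 15.2% of all probe sets lie.

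Cyclins were represented by 10 analysed probe sets of 9 genes. The widest ranges were those of 1 Ccnd1 probe set and of Ccnd2. Both are D cyclins, which pair with Cdk4 and Cdk6 and couple growth signals to the cycle. Ccnd1 was read by a pair of probe sets. The first (94231_at) gave 26.6, 133, 153 and 129 units in samples 1 to 4, a span of at least 5.54-fold because sample 1 lay under the floor, with an adjusted p of 0.898 (limma). The second (94232_at) gave 296, 431, 287 and 331 units. Sample 1 was far below the others in the first probe set, whereas in the second it lay close to sample 3 and sample 2 was highest, so the gene's probe sets did not share an order of samples. Ccnd2, the D cyclin of adult neural progenitors, gave 54.2, 117, 143 and 114 units (107 ± 37.5, SD, n = 4), a 2.63-fold span with adjusted p = 0.994 (limma). It too was lowest in sample 1, and the other samples lay close together. Without sample 1 the range was 0.26 log2 units for the first Ccnd1 probe set and 0.33 for Ccnd2, under 2-fold in both. Ccnd3 gave 274, 293, 255 and 230.2 units, a 1.27-fold span, and the 7 analysed cyclins other than Ccnd1 and Ccnd2 spanned 1.16-fold to 1.55-fold.

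Of the cyclins of later phases, Ccna2, Ccnb2 and Ccne1 were above the floor on all arrays and spanned less than 1.5-fold, whereas Ccna1 and Ccne2 passed it on 1 array each. Ccna2, a cyclin of S phase and mitosis, gave 254, 207, 249 and 257 units, and Ccnb2, a mitotic cyclin, 172, 247, 228 and 239 units. Ccne1, which pairs with Cdk2 at the start of S phase, had the smallest range of the cyclins (431, 387, 377 and 438 units). Ccng1, a target of p53, gave 121, 160.3, 144 and 129 units. Ccng2, a cyclin associated with cell cycle arrest, gave 449, 436, 569.9 and 539.8 units, and Ccnl2, which acts in splicing, 533, 408, 630.0 and 431 units. Over the 10 probe sets the median deviation of a sample from the mean of the other 3 was -0.20 log2 units in sample 1 and 0.22, 0.08 and 0.13 in samples 2 to 4, beside medians of 0.01 to 0.02 over all analysed probe sets. Sample 1 lay above the mean of the others in 4 of the 10. These medians depended on which samples and probe sets were kept. That of sample 1 was -0.02 without sample 2 and -0.03 without sample 3, over 8 probe sets each time. The first Ccnd1 probe set and Ccnd2, both lowest in sample 1, no longer passed the filter in these runs. Without sample 1, over 10 probe sets, the medians of samples 2 and 4 became -0.08 and -0.12. Among the marker lists, that of progenitors and immature neurons had a median deviation of -0.20 log2 units in sample 1. In samples 2 to 4 it had -0.07, -0.08 and 0.31. The microglial list had -0.26, 0.27, -0.23 and -0.22 in samples 1 to 4, and the vessel list had 0.35 in sample 1. The part of these lists in the cyclin values was not tested.

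CDKs and their partners gave 15 analysed probe sets of 13 genes, and 11 of the 15 spanned less than 1.5-fold. Cdk16 and Cdk5r1 had the widest ranges. Cdk5, the CDK of postmitotic neurons, gave 899.8, 980.5, 935 and 772 units (897 ± 89.5, SD, n = 4), a 1.27-fold span. Cdk4, the partner of the D cyclins, gave 684, 613, 587 and 547 units in its analysed probe set. Cdk8 of the Mediator complex had the smallest range of this role, at 402, 398, 432 and 399 units. The other kinases of transcription spanned 1.26-fold to 1.52-fold: Cdk7, of the general factor TFIIH, Cdk9, the elongation kinase, and both analysed probe sets of Cdk11b. Cdk2, the S phase kinase, had no analysed probe set, and gave 88.6, 124, 90.8 and 64.7 units in the stronger of its probe sets. The PCTAIRE kinase Cdk16, which is expressed in neurons, gave 869.9, 799, 640.2 and 486 units, a 1.79-fold span. Its relative Cdk18 was flat, between 330.0 and 398 units, and Cdk14 gave 924, 777, 1102 and 785 units.

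The activator of Cdk5 had a wider range than Cdk5 itself. Cdk5r1 encodes p35, the activator that Cdk5 needs in neurons in place of a cyclin. It measured 322, 322, 165 and 105 units (samples 1 to 4; mean 229 ± 111, SD, n = 4), a 3.07-fold span. It was the only analysed member with an unadjusted p under 0.05 in the limma fit (0.0241), and its adjusted p was 0.767. Samples 1 and 2 were alike, sample 3 was lower and sample 4 lowest. Without sample 4 its range was 0.96 log2 units, under 2-fold. Cdk5r2, the related activator p39, gave 41.6, 30.2, 14.3 and 28.3 units, close to the floor. The summed signal of the 8 measured principal cell markers was 3279, 3275, 2980 and 2721 units in samples 1 to 4, with 7 of the 8 above the floor on all arrays. Of these Camk2a, the kinase of excitatory neurons, gave 357, 629.7, 321 and 29.4 units, whereas Neurod2, a factor of the same neurons, was highest in sample 4 (908.9 units, against 622 to 736). The 3' to 5' quotients of control transcripts were also largest in sample 4. The part of these markers and quotients in the values of Cdk5r1 and Cdk16 was not tested. The less well characterised partners Cdk2ap1 (478 to 603 units), Cdk2ap2 (177 to 246 units) and Cdk5rap3 spanned 1.27-fold to 1.52-fold.

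CDK inhibitors had the largest median range of the roles, 0.76 log2 units over 4 analysed probe sets, 1 of them that of Cdkn2aipnl. Without sample 2 it was 0.43 log2 units, under the 0.51 of mitotic genes, and the difference between roles was not tested. Cdkn1a, the p53 target p21, gave 96.7, 64.1, 257 and 74.6 units (98067_at), a 4.01-fold span with adjusted p = 0.937 (limma). Sample 3 was high, and the other samples lay between 64.1 and 96.7 units. A dimmer probe set of the same gene (94881_at) gave 21.4, 42.5, 72.5 and 152 units, with sample 4 highest, so that sample 3 stood out in 1 of 2 probe sets only. Of the growth arrest genes, Gadd45g was also highest in sample 3 (171, 103, 232 and 223 units), whereas Gadd45a, Gadd45b and Mdm2, a further target of p53, were lowest there (Mdm2 271, 280.0, 243 and 315 units). Cdkn2c, an inhibitor of Cdk4 and Cdk6, gave 175, 97.1, 184 and 182 units, with sample 2 alone lower. Cdkn2d, of the same family, gave 541, 651, 574 and 438 units. Cdkn1b, p27, had no analysed probe set and 34.4, 12.8, 34.6 and 40.1 units in the stronger of its pair. Cdkn1c, p57, lay above the floor on all arrays with 61.6 to 125 units but under the mean needed for analysis, as did Cdkn2a (70.7 to 127 units). Cdkn2aipnl, which carries an inhibitor's prefix but is not itself a CDK inhibitor, ranged from 164 to 246 units.

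**Figure D3:**
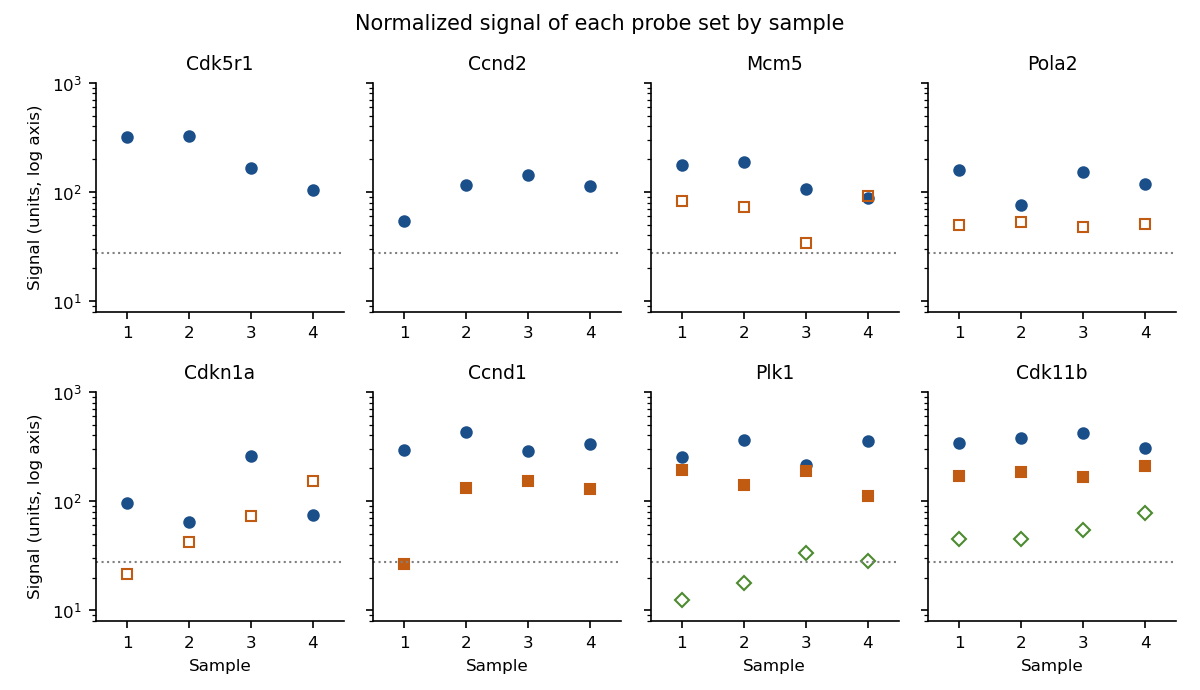
Normalized signal (array units, log axis) of every probe set of 8 member genes in hippocampus samples 1 to 4. Each symbol shape is 1 probe set, filled where it was analysed and open where its mean was too low, and the dotted line is the floor of 27.7 units. Cdk5r1 is lowest in sample 4, Ccnd2 and 1 probe set of Ccnd1 are lowest in sample 1, and the probe sets of Cdkn1a, Plk1 and Cdk11b do not follow one order of samples.

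Of the 20 genes of licensing and DNA synthesis, 14 had no analysed probe set. Pcna, the sliding clamp of DNA polymerases, was analysed and steady, at 288, 301, 245 and 258 units (273 ± 25.8, SD, n = 4). Among the subunits of the MCM helicase, Mcm3 and Mcm5 had an analysed probe set, Mcm2, Mcm4 and Mcm7 lay above the floor on all arrays but under the mean needed, and Mcm6 did not. Mcm3 gave 134, 158, 136 and 183 units. Mcm5 gave 177, 189, 106 and 88.9 units, a 2.12-fold span with adjusted p = 0.994 (limma) in which samples 1 and 2 were high and samples 3 and 4 low, and without sample 4 its range was 0.81 log2 units. Its dimmer probe set gave 82.7, 72.6, 34.1 and 92.8 units, with sample 4 highest. Mcm7, not analysed, gave 33.5, 134, 115 and 58.6 units, Mcm2 gave 115, 106, 66.7 and 111 units, and Mcm4 was flat (83.0 to 101 units). The MCM subunits, which work as a single complex, did not share an order of samples. Pola2, a subunit of polymerase alpha, gave 157, 75.5, 152 and 118 units in its analysed probe set, a 2.08-fold span with sample 2 lowest, but its dimmer probe set was flat (48.0 to 53.5 units). The span of Pola2 was 0.94 log2 units, under 2-fold, in the deposited values without further normalization. Top2b, the topoisomerase II of postmitotic cells, gave 152, 142, 158 and 151 units (151 ± 6.90, SD, n = 4), the smallest range of this role, where Top2a was under the floor. Mcm3ap, an mRNA export factor named for its contact with Mcm3, ranged from 172 to 234 units.

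Other genes of this role lay low. The origin factors Cdc6 (57.1 to 73.7 units) and Cdc7 (64.5 to 98.4 units) and the catalytic subunit Pola1 (36.5 to 53.5 units) were above the floor on all arrays. The ribonucleotide reductase genes Rrm1 and Rrm2, the primase gene Prim1 and the helicase cofactor Cdc45 crossed the floor on 1 to 3 arrays, depending on the probe set. Among E2F factors only E2f5, which acts mainly as a repressor, was analysed, at 98.2, 122, 138 and 129 units, a 1.40-fold span. E2f1, an activator of S phase genes, gave 81.7, 92.8, 67.5 and 136 units in the stronger of its probe sets and 63.1, 11.7, 35.2 and 5.94 units in the other.

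Among mitotic genes the smallest ranges included those of Plk2, Bub3, Cdc16 and Plk3, and 7 of 24 probe sets never passed the floor. Plk2, a polo-like kinase induced by activity in neurons, gave 3011, 3255, 3339.6 and 3051 units, a 1.11-fold span, and Plk3, a stress-responsive relative, gave 3645, 3866, 3870.3 and 4436 units. Bub3, a checkpoint protein, gave 680.5, 671, 653 and 585 units in 1 probe set and 8.95 to 12.8 units in another. Of the anaphase promoting complex, Cdc16 ranged from 363 to 429 units, Cdc26 gave 217, 193, 249.7 and 140.1 units, and Cdc23 gave 86.9, 159.9, 152 and 147 units with sample 1 lower than the rest. The activator of this complex, Cdc20, gave 87.3 to 114 units and was not analysed, like Plk4, the kinase of centriole duplication (44.9 to 108 units). Plk1, the polo-like kinase of mitosis, had a pair of analysed probe sets with opposite orders of samples, 193, 139.9, 188 and 113 units (101350_g_at) against 251, 362, 213 and 352 units (161292_f_at). Samples 1 and 3 were the higher ones in the first and the lower ones in the second. Mki67, the proliferation antigen, gave 91.4, 106, 126 and 109.7 units in a probe set with the suffix r and 3.10 to 24.4 units in its other probe set, all of them under the floor. Cdc25a, a phosphatase that activates CDKs, ranged from 174 to 255 units in 1 probe set and from 5.08 to 10.9 units in the other, and its relative Cdc25c passed the floor on 2 or 3 arrays.

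**Figure D4:**
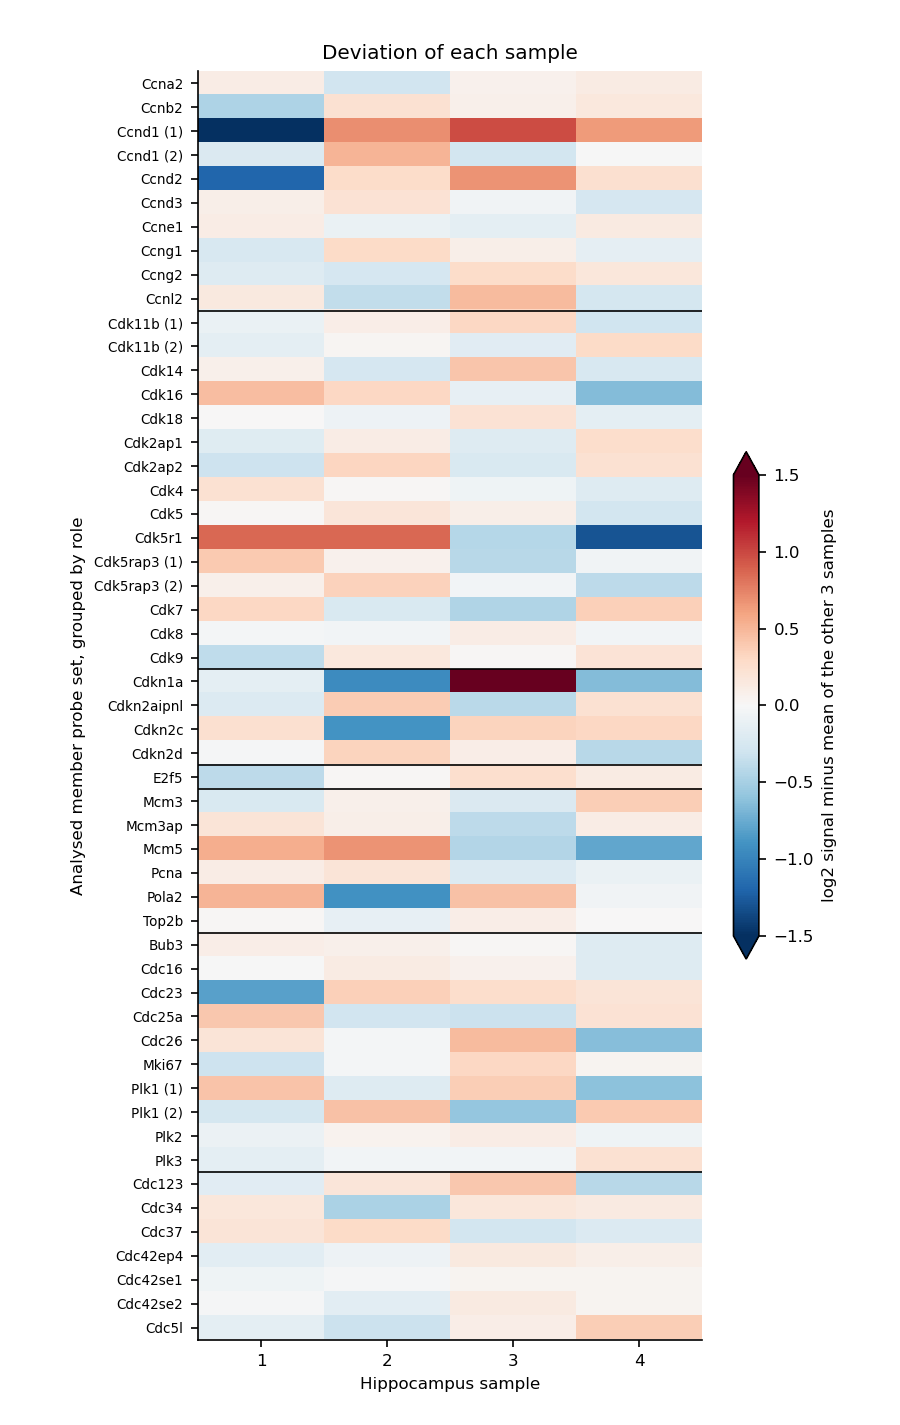
Difference, in log2 units, between a hippocampus sample and the mean of the remaining 3 (colour, red higher and blue lower, saturated beyond 1.5), for the 53 analysed member probe sets in rows, grouped by role with lines between the roles. Most cells are pale, and the deepest colours belong to the first probe set of Ccnd1, to Ccnd2, Cdk5r1 and Cdkn1a.

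Probe sets of the same gene often disagreed, among members as on the whole array, which bears on how far a single value can be read. Of 23 member genes with several probe sets, 4 (Bub3, Cdc23, Cdc25a and Mki67; 17.4%) had an analysed probe set and another above the floor on 0 arrays, against 15.1% of all such genes on the array. Of the 4 member genes with 2 analysed probe sets (Ccnd1, Cdk11b, Cdk5rap3 and Plk1), 0 shared the highest sample and 0 the lowest. Of all genes with 2 or more analysed probe sets 27.3% and 26.0% did, and 4 genes are too few for a comparison. Suffixes that mark probes shared with other sequences or chosen under relaxed rules (f, g, r and s) were carried by 16 of 110 member probe sets and 6 of 53 analysed ones, those of Plk1, Plk3, Mki67, Mcm3 and Cdk11b.

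Of the 10 probe sets of other matches of the pattern, 7 were analysed, and 6 of these spanned less than 1.5-fold. Cdc42se1 and Cdc42se2, small effectors of the GTPase Cdc42, ranged from 645 to 680.5 and from 848 to 989 units, and Cdc42se1 had the smallest range of all members, 1.05-fold. Cdc37, the cochaperone that brings kinases to Hsp90, gave 1107, 1166, 873 and 903 units. Cdc34, a ubiquitin-conjugating enzyme, gave 349, 249.8, 348 and 344 units, with sample 2 alone lower. Cdc5l, a splicing factor, gave 246, 224, 279 and 321 units, Cdc123 ranged from 336 to 513 units, a 1.53-fold span, and Cdc42ep4 from 184 to 216 units. Cdc73, of the Paf1 complex, was dim (30.5 to 43.7 units), as was the second probe set of Cdc5l (55.7 to 134 units), and the second of Cdc34 passed the floor on 1 array.

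No sample was consistently high or low across the members. Over the 53 probe sets the median deviation was -0.01, 0.07, 0.07 and 0.005 log2 units in samples 1 to 4, and that of sample 2 was -0.01 with median scaling and that of sample 4 -0.03 in the deposited values. The highest sample was sample 1 in 9 members (17.0%, against 24.6% of all analysed probe sets), sample 2 in 16 (30.2%, against 21.5%), sample 3 in 18 of 53 (against 22.4%) and sample 4 in 9 (17.0%, against 31.1%), with 1 tie. The lowest was sample 1 in 14 (26.4%, against 23.1%), sample 2 in 12 (22.6%, against 22.7%), sample 3 in 12 (22.6%, against 23.3%) and sample 4 in 15 (28.3%, against 30.7%). These orders depended on the scaling, and the counts of the highest sample moved most for samples 2 and 4. With median scaling sample 2 was highest in 7 members (against 13.4% of all analysed probe sets), sample 3 in 16 (against 21.6%) and sample 4 in 19 (against 40%). With the deposited values the counts were 16 (against 21.4%), 19 (against 22.9%) and 10 (against 32.1%). These shares were not tested. Among the 43 probe sets chosen for naming, the highest sample stayed the same in 33 with median scaling and in 41 with the deposited values. For Cdk5r1, whose samples 1 and 2 were nearly equal, it changed from sample 2 to sample 1 with median scaling.

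Other genes of the pathway gave no call either. Of 57 listed genes 47 were measured and 21 analysed, 0 passed the variance test at an adjusted p or at an unadjusted p under 0.05, and 3 (14.3%) had a range of at least 2-fold (Gadd45g, and Pold1 and Pold2, subunits of DNA polymerase delta). Their median range was 0.64 log2 units. Pold1 gave 183, 202, 103 and 219 units and Pold2 gave 106, 163, 79.7 and 122 units. Both were lowest in sample 3. The tubulin regulator Stmn1 gave 2822 to 3453 units and Anapc5, of the anaphase promoting complex, 2145 to 2665 units. The E2F partner Tfdp1 gave 486 to 659.9 units, and Rb1, the retinoblastoma gene, 71.2 to 108 units, too dim for analysis. The transcription factor Myc, the CDK subunit Cks1b and the mitotic motors Kif11 and Cenpe lay above the floor on 0 arrays.

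Markers of other cells that could carry division genes were measured in the same samples. The summed signal of 9 progenitor and immature neuron markers ranged from 5364 to 6307 units, most of it from Tubb3 (3714 to 4219 units). Eomes, an intermediate progenitor factor, lay under the floor on all arrays. Of the 7 analysed markers of this list 3 (42.9%) had a range of at least 2-fold, against 15.2% of all analysed probe sets. These were Sox4, Sox11 and Nes (98.55, 204, 58.7 and 205 units in samples 1 to 4). The share was 66.7% to 100% in the astrocyte, vessel, choroid plexus and red blood cell lists, with 3 analysed markers each. In the other cell type lists it was 0% to 20%. The sum of 2 measured oligodendrocyte precursor markers, Pdgfra and Sox10, ranged from 1049.6 to 1130.0 units, that of 6 microglial markers from 1663 to 2228 units and that of 3 astrocyte markers from 1619 to 1959 units. Vessel markers (5 measured) summed to 588 to 868 units, choroid plexus markers (3) to 1104 to 2955 units, red blood cell markers (3) to 4525 to 14124 units and lymphocyte markers (5) to 273 to 356 units. In sample 3, where 1 of the 2 probe sets of Cdkn1a was highest, the sums of the vessel, choroid plexus and red blood cell lists were at their lowest. Among astrocyte markers Slc1a2 (190, 219, 373 and 107 units) and Aqp4 (603, 739, 994 and 532 units) were highest in that sample, and Gfap was lowest there (581 units, against 827 to 1320.2). Their part in the members' values was not tested.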

How the data were processed

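The deposited values are linear intensities of 12422 probe sets and 66 controls on 4 arrays. Array means of the deposited values, trimmed by 2% at each end, were 250.1 units on each array, and the software behind them is not given in the sources used here. Controls were left out, and arrays were quantile normalized (limma 3.58.1, R 4.3.3), set to a floor at the 25th percentile and taken to log2. A range that involves the floor is a lower bound. Each variance was tested against the intensity trend across the 6210 probe sets whose mean passed the median (robust empirical Bayes, 3 residual and 5.06 prior degrees of freedom, Benjamini-Hochberg adjustment), and the test was tested on simulated data.

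Symbols came from the platform annotation, and 110 of 110 members matched the RefSeq gene table of GRCm38.p6 by Entrez identifier. In the pathway and marker lists a gene was read from the probe set of largest mean. Named were, by role, the 4 analysed probe sets with the largest and the 2 with the smallest range, members with an unadjusted p under 0.05, preselected core genes, and genes with 2 or more analysed probe sets. Further members were named to account for all members, and the promoters printed were chosen after values had been seen. The members and lists were chosen with earlier results of these data known. Alternatives were median scaling, no further normalization, a floor at the 10th percentile, other filters, a non-robust prior, 1 probe set a gene and leaving out each sample.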

Additional observations from a re-analysis of the deposited data

Results flagged for a closer look

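In 6 of the 53 analysed members (11.3%, against 6.05% of all analysed probe sets), 1 sample lay far from the other 3, its gap to the nearest taking up more of the log2 range than the 95% critical value of Dixon's test for 4 samples. Chance alone flags about 1 in 20 groups. Sample 2 was low for Cdc34 (gap of 0.956 of the range), Cdkn2c (0.920) and Ccna2 (0.856). Sample 1 was low for the dimmer analysed probe set of Ccnd1 (0.898) and for Cdc23 (0.862). Sample 3 was high for Cdk8 (0.862), whose whole span was only 1.09-fold. The second analysed probe set of Ccnd1 did not set sample 1 apart.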

How the results depend on the processing

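The count of members past the adjusted variance test was 0 in every alternative run, with a smallest adjusted p among members of 0.449 to 0.958 (limma). The median range (0.36 to 0.52 log2 units) moved by less than the members' median SD between samples in all of them. The median deviation of each sample did too, but this margin is larger than the deviations themselves and could hardly be passed. Deviations near 0 changed sign, as did those of cyclins in samples 2 and 4 when sample 1 was left out. For the 43 named probe sets, 4 log2 ranges moved by more than the SD of their own samples with median scaling (Cdk5, Cdk8, Cdc42se1 and Cdc42se2) and 4 to 8 when 1 sample was left out. With no filter on dim probe sets, 19 of 110 members (17.3%) spanned at least 2-fold, against 22.6% of all probe sets. An unadjusted p under 0.05 (limma) was seen in 16 of the 110, against 1224 of 12422 probe sets. With the filter that asks for a signal above the floor on all arrays, 2 of 71 members had such a p, against 433 of 7959 probe sets. A 2-fold range was found for 11 of the 71 (15.5%), against 21.2% of all. In each case more probe sets, and dimmer ones, were tested. Leaving out each sample in turn gave 3 to 4 members with a 2-fold range (5.88% to 7.69%, against 7.36% to 11.8% of all analysed probe sets). It gave 1 member at an unadjusted p under 0.05 (limma) each time, against 311 to 364 probe sets of the whole array. No paired analysis was possible because the samples form 1 group. Precision is limited by there being only 4 arrays, and without detection calls a signal near the floor cannot be told from background.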

Other observations

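Of the 57 member probe sets too dim for analysis, 17 were highest in sample 4 (against 21.7% of all such probe sets), 14 in sample 2 (16.1%), 8 in sample 3 (16.8%) and 7 in sample 1 (16.9%), and 11 never passed the floor. The examples given here were chosen after their values had been seen. Both probe sets of E2f8, a repressor of S phase genes, were highest in sample 4, at 23.1, 30.1, 5.83 and 49.4 units and at 22.2, 33.6, 8.88 and 43.0 units in samples 1 to 4, with 2 of 4 signals above the floor in each. E2f3, an activator, gave 12.3, 50.0, 9.88 and 81.5 units in the same samples. Aurkb, a mitotic kinase, gave 29.7, 30.3, 26.3 and 59.1 units, and was also highest in sample 4. Relatives differed. A probe set of E2f1 (63.1, 11.7, 35.2 and 5.94 units) and Aurka (48.5, 14.8, 26.6 and 8.22 units) were highest in sample 1, and Mcm6, Mcm7, Ccne2 and Prim1 in sample 2. Rrm2 was nearly equal in samples 1 and 2 (45.1 and 45.2 units) and lower in the others. Tk1, the thymidine kinase of S phase, is a pathway gene outside the members and gave 50.1, 32.0, 71.4 and 185 units. Cdc45 and Mcm10, which act together at the replication fork, were both highest in sample 3, at 18.6, 24.4, 77.8 and 37.9 units and at 51.0 units against 17.1 to 21.0 in the others. The 3' to 5' quotients of control transcripts were also largest in sample 4, and their part in these values was not tested.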
